A study of Mus musculus with 12 samples.

Results

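The genes of GABA and glycine transmission were followed on 12 Affymetrix arrays of mouse cerebellum. The set holds 7 genes picked by name: Gad1 and Gad2, which make GABA; Slc32a1, which loads GABA and glycine into synaptic vesicles; Slc6a5, which brings glycine back into nerve terminals; and Gabra6, Gabrd and Gabrb2, which are subunits of the GABA-A receptor. The platform annotation assigns 10 of the 22690 probe sets on the array to these genes, each with 1 gene symbol. Of the 7 genes, 6 were among the 7835 tested out of 12393 with a single-symbol probe set. Slc6a5 was not tested, because its signal lay below the filter on dim genes, an intensity of 959 or 9.93 on the log2 scale used throughout.

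GABA is made from glutamate by 2 related decarboxylases, packed into vesicles by a transporter that it shares with glycine, and sensed by chloride channels of 5 subunits (GABA-A receptors) and by G protein-coupled GABA-B receptors. In the cerebellum, Purkinje cells and the basket, stellate and Golgi interneurons release GABA, and many Golgi cells and some neurons of the cerebellar nuclei also release glycine. Granule cells, by far the most numerous neurons of this tissue, receive Golgi cell inhibition through receptors that contain the alpha subunit Gabra6, many of them together with the delta subunit Gabrd, which sits outside synapses and carries steady inhibition.

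All 12 mice were BALB/c. Their genotype was either Npc1+/+, called wild type, or Npc1-/-, called null, and cerebellum was taken at postnatal day 21 (P21) or 49 (P49), with 3 individual animals in each of the 4 groups, per the labels. Npc1 encodes a protein that moves cholesterol out of late endosomes and lysosomes, the null animals lack it in every tissue, and the whole cerebellum was used, so a value is an average over all of its cell types. The labels call 11 animals female and P49 null replicate 1 male. The comparisons ask whether the genes differ between genotypes at each age, whether that difference depends on age, and whether they differ between ages within a genotype; both contrasts averaged over the other factor were added after the data had been seen.

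Some arrays stood apart or went against their labels. The female transcript Xist was between 15.61 and 15.86 on 9 arrays, including the array labelled male, and was lower on the other 3: 9.28 (wild-type P21 replicate 2), 13.01 and 13.36 (null P21 replicates 2 and 3). On those 3 arrays, all labelled female, the Y-linked gene Eif2s3y was at 12.72, 9.25 and 12.67, against at most 8.91 elsewhere. Null P21 replicate 3 was thus high for both transcripts. Null P21 replicate 2, with Xist at 13.01, read 10.17 and 9.76 for the Y-linked genes Kdm5d and Uty. The 9 arrays with high Xist read at most 8.82 and 8.49 for them. Why these arrays were mixed was not tested. The 3 arrays with lower Xist are called, below, the 3 arrays that went against their sex labels. Values without them are given for each tested gene. That fit keeps 1 null P21 array and assumes that it varies like the other groups. It also keeps the array labelled male, which went against its label too (Eif2s3y 7.93). The null P21 arrays also lay farthest from their own group mean, with median absolute deviations of 0.136 to 0.195 against 0.0771 to 0.0997 in the other groups. Npc1 was lower on each of the 6 null arrays (8.25 to 10.53) than on any wild-type array (11.06 to 11.75). Of the defining cell type markers with a probe set, 13 of 14 for Purkinje cells, 14 of 15 for granule neurons and 12 of 13 for interneurons reached the filter, whereas 0 of 22 brainstem markers and 6 of 8 markers of the cerebellar nuclei and of brainstem projection neurons did so on average. Wild-type P21 replicate 3 was the array with the highest summed brainstem signal (13.04) and the only one with a brainstem marker above the filter (1 of 22). It was also highest for the cerebellar nuclei list, at 16.83 against 16.07 to 16.28 on the other P21 arrays. The 6 tested markers of that list had negative null minus wild-type differences at P21 (median -0.35, 0 called), and 1, Nefh, a neurofilament gene, was called lower in null animals at P49 (-0.84 ± 0.17, limma, adjusted p = 0.0147).

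The sequences just upstream of 4 of the genes are shown because they pair the 2 GABA-synthesising enzymes, whose values with age are described first, and 2 receptor genes that lie side by side on chromosome 11. Each is the 250 bases before the RefSeq start (assembly GRCm38.p6), written 5′ to 3′ on the strand of the gene. Capitals mark matches, on either strand, to the letters CANNTG of an E-box, TTGGC of a nuclear factor I site, GGGCGG of the Sp box (GC box), TATAAA of the TATA box or TGACG of the cyclic AMP response element. The windows lie at chr2:70561879-70562128 (Gad1, plus strand), chr2:22622077-22622326 (Gad2, plus strand), chr11:42321073-42321322 (Gabra6, minus strand) and chr11:42420190-42420439 (Gabrb2, plus strand, the first of 3 windows listed for it).
Gad1: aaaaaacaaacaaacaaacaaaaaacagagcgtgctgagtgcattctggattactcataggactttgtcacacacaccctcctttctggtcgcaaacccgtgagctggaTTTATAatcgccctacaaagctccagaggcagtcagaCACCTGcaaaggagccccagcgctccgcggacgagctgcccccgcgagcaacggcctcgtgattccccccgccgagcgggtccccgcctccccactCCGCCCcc
Gad2: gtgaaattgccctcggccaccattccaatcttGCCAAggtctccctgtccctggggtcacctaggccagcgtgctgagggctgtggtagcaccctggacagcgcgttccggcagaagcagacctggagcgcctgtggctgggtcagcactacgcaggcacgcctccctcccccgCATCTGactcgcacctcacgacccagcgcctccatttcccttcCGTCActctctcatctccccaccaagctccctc
Gabra6: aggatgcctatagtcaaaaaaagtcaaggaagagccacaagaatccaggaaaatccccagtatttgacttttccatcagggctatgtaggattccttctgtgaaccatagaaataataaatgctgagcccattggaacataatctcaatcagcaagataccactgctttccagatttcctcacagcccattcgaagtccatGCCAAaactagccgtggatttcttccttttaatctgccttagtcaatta
Gabrb2: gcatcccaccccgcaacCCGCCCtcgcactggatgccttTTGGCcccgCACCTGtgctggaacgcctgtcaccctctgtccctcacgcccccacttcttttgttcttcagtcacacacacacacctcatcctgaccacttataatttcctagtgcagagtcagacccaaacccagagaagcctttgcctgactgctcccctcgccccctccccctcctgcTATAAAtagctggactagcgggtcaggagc

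The Gad1 window was 58.0% G and C and held an E-box 104, a GC box 8 and a TATA box 141 bases before the start. The Gad2 window, the richest of the 4 in G and C, held no GC or TATA box, but an E-box 76, a nuclear factor I match 218 and a cyclic AMP element match 33 bases before the start. The neighbours on chromosome 11 differed in make-up: the Gabra6 window was 40.8% G and C with a single match, a nuclear factor I match 49 bases upstream. The Gabrb2 window was 58.8% G and C, with a TATA box 30, an E-box 202, a nuclear factor I match 211 and a GC box 233 bases upstream. The further windows listed for Gabrb2 held no match. Such matches are common. Of 32851 windows of this length in the RefSeq table, 66.2% held an E-box, 41.5% a nuclear factor I match, 32.7% a GC box, 17.8% a cyclic AMP element match and 12.4% a TATA box, and the median G and C content was 52.4%. Windows were matched for 6 of the 7 genes, all but Gabrd, and a match says only that the letters are there.

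None of the 6 tested genes passed the test for genotype or for age. With limma and Benjamini-Hochberg adjustment over 7835 genes, 0 of 6 passed the threshold of 0.05 for null against wild type at P21, where 0.0638% of all genes did, and 0 of 6 at P49, where 2.65% did. The same held for the dependence of the genotype difference on age (0 of 6, against 0.549% of all genes), for P49 against P21 in wild type (0 of 6, against 0.702%) and in null animals (0 of 6, against 6.23%). Averaging did not add a call, either for genotype over both ages (0 of 6, against 2.12%) or for age over both genotypes (0 of 6, against 6.97%). At an unadjusted p under 0.05 there was 1 of the 6 genes in each of these comparisons except the dependence on age, with 0. Over all genes the shares at that level were 10.1% and 11.3% for genotype at P21 and P49, 8.44% for the dependence on age, 9.99% and 20.9% for age in wild type and in null animals, and 14.5% and 22.5% for the averages over ages and over genotypes. The genotype differences of the 6 genes lay between -0.20 and 0.12 at P21 and between -0.21 and 0.13 at P49.

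**Figure D1:**
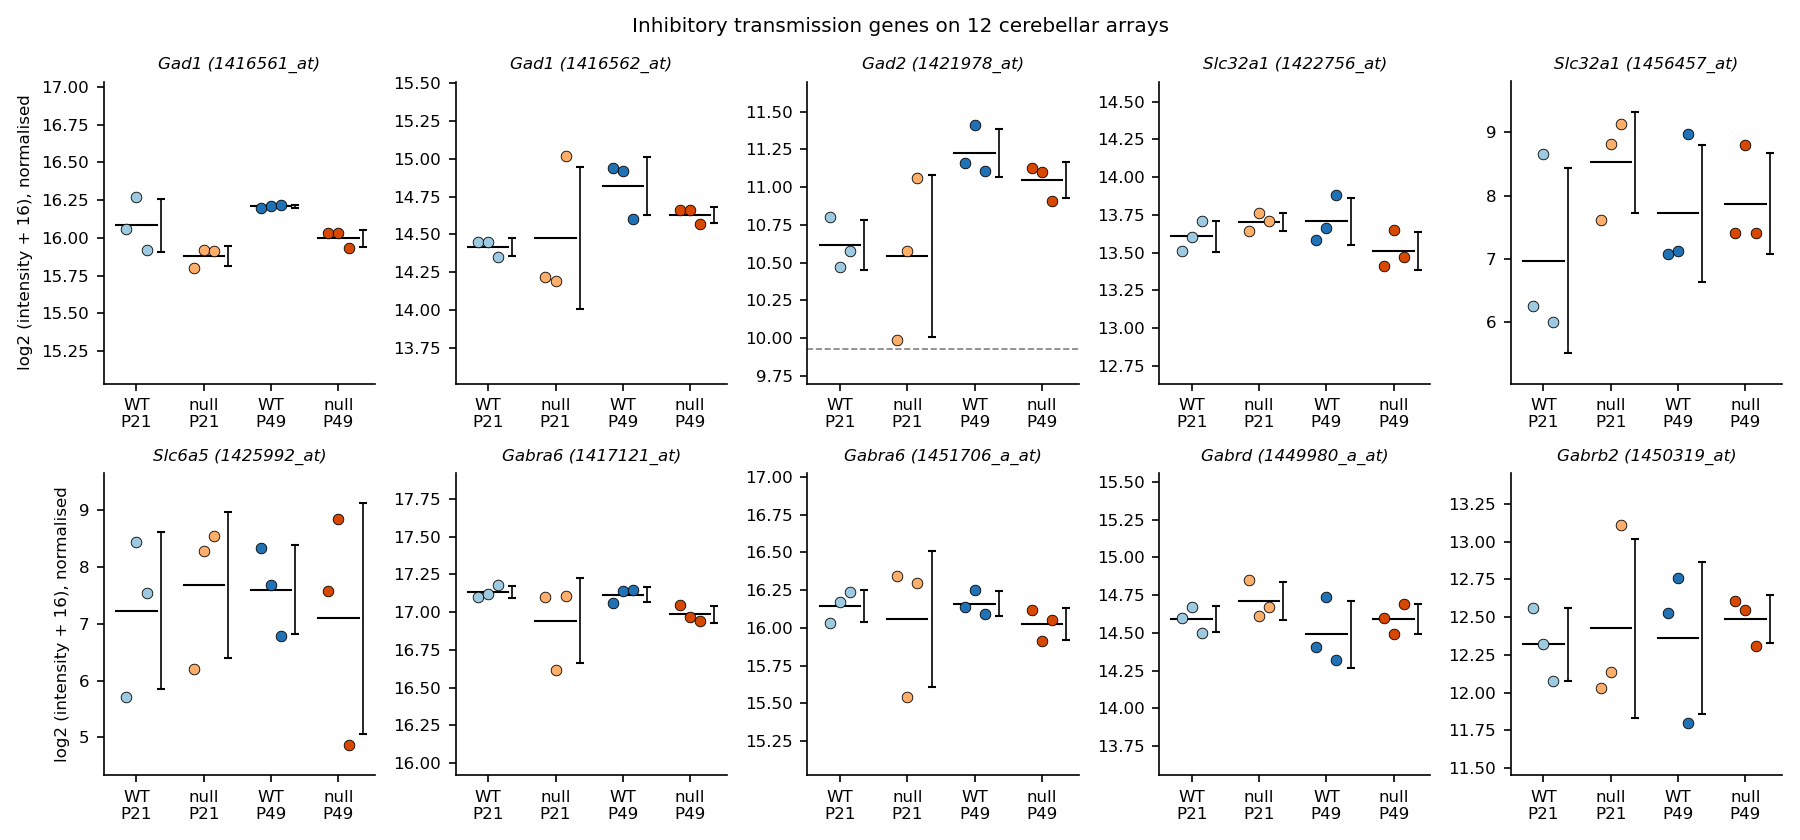
Each point is 1 array, for the 10 probe sets of the 7 genes, as log2(intensity + 16) after quantile normalization; horizontal lines are group means, error bars are SD (n = 3 animals), WT is wild type, and the dashed line in the Gad2 panel is the filter at 9.93. The panels have different vertical ranges. All 6 Gad2 arrays of P49 lie above the wild-type P21 arrays, and in several panels the null P21 arrays are spread widest.

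Gad1 encodes the decarboxylase that supplies most of the GABA of the brain. Its brighter probe set, 1416561_at, read 16.06, 16.27 and 15.92 in the wild-type P21 animals and 15.80, 15.92 and 15.91 in the null P21 animals. At P49 it read 16.20, 16.21 and 16.22 in wild type and 16.03, 16.03 and 15.93 in null animals. The groups overlapped at P21, and at P49 all 3 null arrays lay below all 3 wild-type arrays. Null minus wild type was -0.20 ± 0.09 in the P21 animals (limma, adjusted p = 0.484) and -0.21 ± 0.09 at P49 (adjusted p = 0.336), with a 95% confidence interval at P49 of -0.40 to -0.03, or -24.3% to -1.78% in intensity. Averaged over both ages it was -0.21 ± 0.06 (unadjusted p = 0.00464, adjusted p = 0.117). That averaged difference passed the limma threshold without wild-type P21 replicate 3 (-0.25, adjusted p = 0.0485) and in none of the other 22 alternatives. The array left out there had the lowest wild-type value (15.92) and the most brainstem signal, and a link between these was not tested.

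The second Gad1 probe set, 1416562_at, did not separate the genotypes. It read 14.45, 14.45 and 14.35 in wild type at P21, 14.22, 14.19 and 15.02 in null animals at P21, 14.94, 14.92 and 14.60 in wild type at P49 and 14.66, 14.66 and 14.57 in null animals at P49. The value of 15.02 on null P21 replicate 3 was the highest of all 12, and the null minus wild-type differences were 0.06 ± 0.18 at P21 and -0.19 ± 0.18 at P49 (adjusted p = 0.917 and 0.833). The P21 differences of the 2 Gad1 probe sets therefore had opposite signs, while at P49 both were negative and of like size.

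On 1416561_at, Gad1 at P49 minus P21 was 0.13 ± 0.09 in wild type (adjusted p = 0.693) and 0.12 ± 0.09 in null animals (adjusted p = 0.455). In the null animals, all 3 P49 arrays lay above all 3 P21 arrays, as they did for 10.5% of all genes tested. The sign in null animals was not stable, since scaling the arrays to a common median gave -0.13, a setting that moved the median of all genes in that comparison from -0.01 to -0.13. Averaged over genotypes the age difference was 0.13 ± 0.06 (adjusted p = 0.25), and without the 3 arrays that went against their sex labels it was 0.21 (adjusted p = 0.0386). The same fit gave -0.18 between genotypes at P21, and 0.22 in wild type and 0.19 in null animals with age (adjusted p = 0.732, 0.151 and 0.228). The second probe set gave 0.40 ± 0.18 in wild type (limma, unadjusted p = 0.0425, adjusted p = 0.507) and 0.15 ± 0.18 in null animals (adjusted p = 0.672). On it, all 3 wild-type P49 arrays lay above all 3 wild-type P21 arrays.

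Gad2 encodes the second decarboxylase, which is concentrated at nerve terminals. Its 1 probe set, 1421978_at, read 10.80, 10.47 and 10.58 in wild type at P21 and 9.99, 10.58 and 11.06 in null animals at P21. At P49 it read 11.16, 11.41 and 11.11 in wild type and 11.13, 11.10 and 10.91 in null animals. All 6 P49 arrays lay above all 3 wild-type P21 arrays, and null P21 replicate 3 reached into the P49 range. This was the widest difference with age among the 6 tested genes, and it did not pass the threshold in either genotype: P49 minus P21 was 0.61 ± 0.23 in wild type (52.4%, unadjusted p = 0.0194, adjusted p = 0.352) and 0.50 ± 0.23 in null animals (41.8%, unadjusted p = 0.0461, adjusted p = 0.23). Among all genes tested, 10.4% had every wild-type P49 array above every wild-type P21 array. On the brightest probe set of each gene, Gad2 alone did so of the 6. The second Gad1 probe set, 1416562_at, did so too.

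Averaged over genotypes, the age difference of Gad2 was 0.56 ± 0.16 (95% confidence interval 0.21 to 0.91, unadjusted p = 0.00424, adjusted p = 0.0566 by limma). It passed the threshold in 3 of 22 alternatives, each of which leaves out null P21 arrays. Without the 3 arrays that went against their sex labels it was 0.80 (adjusted p = 0.00464). Within null animals the same fit gave 1.06 (adjusted p = 0.0171), and leaving out null P21 replicate 3 alone gave 0.76 (adjusted p = 0.0433). In wild type the call was made in no alternative, with adjusted p from 0.089 to 0.704. Gad2 lies near the filter, with array values from 862 to 2750 in deposited intensity, and it was not tested with the filter at the 60th percentile.

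Between genotypes, Gad2 differed by -0.07 ± 0.23 at P21 and -0.18 ± 0.23 at P49 (adjusted p = 0.913 and 0.869). The intervals, -0.57 to 0.42 and -0.67 to 0.31, correspond to -32.6% to 33.7% and -37.3% to 24.4% of the wild-type level. With 3 arrays a group, differences within these intervals were not excluded. The sign at P21 turned when the first animal of either P21 group was left out (0.01 and 0.20). Without the 3 arrays that went against their sex labels the P21 difference was -0.70 (adjusted p = 0.546), beyond the interval from all arrays, and the difference averaged over ages was -0.44 (adjusted p = 0.199) instead of -0.13. With clone and numbered gene names left out, the genes most like Gad2 over the 12 arrays were Rnf227 (Pearson r = 0.94), Dnm3 (0.92) and Prpsap2 (0.92). Dnm3 encodes a dynamin. These values describe 12 arrays that share their groups and their normalization.

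Slc32a1 encodes the vesicular transporter shared by GABA and glycine. Its brighter probe set, 1422756_at, read 13.51, 13.60 and 13.71 in wild type at P21, 13.64, 13.76 and 13.71 in null animals at P21, 13.58, 13.66 and 13.88 in wild type at P49 and 13.41, 13.65 and 13.47 in null animals at P49. The 4 groups overlapped, and the group means spanned 0.20, the null P49 mean being lowest and the wild-type P49 mean highest. Null minus wild type was 0.10 ± 0.11 at P21 and -0.20 ± 0.11 at P49 (adjusted p = 0.74 and 0.568), and P49 minus P21 was 0.10 ± 0.11 in wild type and -0.19 ± 0.11 in null animals (adjusted p = 0.84 and 0.322). The change of that difference between ages, -0.30 ± 0.15, was the largest in size of the 6 genes and did not pass the threshold either (adjusted p = 0.65). Slc32a1 differed, without the 3 arrays that went against their sex labels, by 0.03 between genotypes at P21 and by -0.13 with age in null animals (adjusted p = 0.979 and 0.63). The second Slc32a1 probe set, 1456457_at, lay below the filter, with deposited intensities from 47.5 to 567 and group SDs of 0.80 to 1.47, and gave no usable comparison.

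Slc6a5, the glycine transporter of glycinergic terminals, was close to the bottom of the measured range. Its probe set, 1425992_at, read 5.72, 8.44 and 7.54 in wild type at P21, 6.20, 8.29 and 8.55 in null animals at P21, 8.34, 7.68 and 6.78 in wild type at P49 and 7.58, 8.84 and 4.87 in null animals at P49. The arrays of 1 group spread by up to 3.97, the full range over all 12 arrays, whereas the group means, from 7.10 to 7.68, spanned 0.58. No array reached the filter, and which of these values lie above background is not known. Without a filter, the null minus wild-type difference was 0.45 ± 0.99 at P21 and -0.50 ± 0.99 at P49. The 95% intervals were -1.67 to 2.57 and -2.63 to 1.62, and differences within them were not excluded. With the same names left out, Recql, a DNA helicase gene, followed the Slc6a5 values most closely over the 12 arrays (r = 0.88). Tcte1 (0.80) and Ccdc106 (0.79) came next. This describes arrays on which Slc6a5 itself is near the floor.

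No receptor subunit gene of the set was called in any comparison. Gabra6, expressed almost only by granule cells in the adult cerebellum, was read by 2 bright probe sets. On 1417121_at it was 17.10, 17.12 and 17.18 in wild type at P21, 17.10, 16.62 and 17.11 in null animals at P21, 17.06, 17.14 and 17.15 in wild type at P49 and 17.05, 16.97 and 16.94 in null animals at P49. All arrays but null P21 replicate 2 stayed within 16.94 to 17.18. Null minus wild type was -0.19 ± 0.11 at P21 and -0.13 ± 0.11 at P49 (adjusted p = 0.541 and 0.778), and the sign at P21 was not kept by all scalings (0.04 with the arrays scaled to a common median). P49 minus P21 was -0.01 ± 0.11 in wild type and 0.05 ± 0.11 in null animals (adjusted p = 0.984 and 0.854), with signs that also turned with the scaling. At P49, Gabra6 and Gad1 were the 2 of the 6 genes whose null arrays all lay below all wild-type arrays, which 12.0% of all genes did.

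The second Gabra6 probe set, 1451706_a_at, read between 15.91 and 16.34 on 11 arrays and 15.54 on null P21 replicate 2, the array that was also lowest on 1417121_at. Its null minus wild-type difference was -0.09 ± 0.16 at P21 and -0.13 ± 0.16 at P49 (adjusted p = 0.863 and 0.879), and its groups overlapped at both ages. Without the 3 arrays that went against their sex labels, the P21 difference on 1417121_at was -0.04 (adjusted p = 0.955) and the age difference in null animals -0.11 (adjusted p = 0.463). Deposited intensities on 1417121_at, from 118000 to 149000, approached the highest of any probe set (176875 to 266679 per array), and whether the scanner was still linear there was not tested.

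Gabrd, the delta subunit, read 14.60, 14.67 and 14.50 in wild type at P21 and 14.85, 14.61 and 14.67 in null animals at P21. At P49 it read 14.41, 14.74 and 14.32 in wild type and 14.60, 14.49 and 14.69 in null animals. Its groups overlapped in each comparison, and null minus wild type was 0.12 ± 0.11 at P21 and 0.11 ± 0.11 at P49 (adjusted p = 0.691 and 0.834). With age Gabrd differed by -0.10 ± 0.11 in wild type and -0.11 ± 0.11 in null animals (adjusted p = 0.86 and 0.6). The genotype interval at P49, -0.14 to 0.35, covers a change from -9.10% to 27.6%. Leaving out the 3 arrays that went against their sex labels gave Gabrd differences of 0.30 between genotypes at P21 and -0.25 with age in null animals (adjusted p = 0.731 and 0.332).

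Gabrb2, a beta subunit found in much of the brain, was the least precise of the tested genes. It read 12.56, 12.32 and 12.08 in wild type at P21, 12.03, 12.14 and 13.11 in null animals at P21, 12.53, 12.76 and 11.80 in wild type at P49 and 12.61, 12.55 and 12.31 in null animals at P49. The high value on null P21 replicate 3 and the low one on wild-type P49 replicate 3 set the widest part of this spread. Null minus wild type was 0.11 ± 0.28 at P21 and 0.13 ± 0.28 at P49 (adjusted p = 0.895 and 0.933), and without null P21 replicate 3 the P21 difference was -0.24. With age Gabrb2 differed by 0.04 ± 0.28 in wild type and 0.06 ± 0.28 in null animals (adjusted p = 0.981 and 0.929). Without the 3 arrays that went against their sex labels the P21 genotype difference was -0.29, the age difference in null animals 0.46 and the dependence on age 0.42 instead of 0.02 (adjusted p = 0.887, 0.378 and 0.786). Gabra6 and Gabrb2 lie next to each other in the RefSeq gene order.

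**Figure D2:**
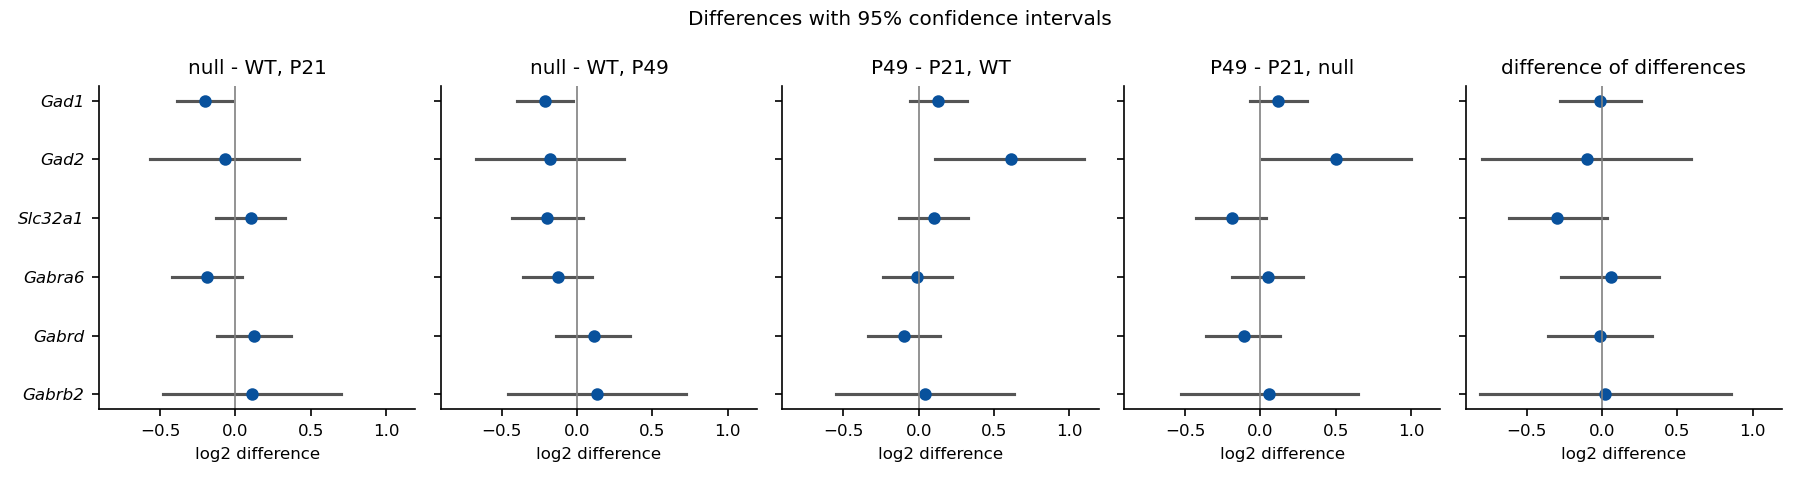
Differences in log2(intensity + 16) for the 6 tested genes in 5 comparisons (points), with 95% confidence intervals from limma (bars); WT is wild type, and the last panel is the null minus wild-type difference at P49 minus that at P21. Intervals are narrowest for Gad1 and widest for Gabrb2, and the largest shift is that of Gad2 with age in wild type, 0.61.

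The order of the 4 group means was not the same from gene to gene. The wild-type P49 mean was highest for Gad1, Gad2 and Slc32a1, the 3 genes of GABA synthesis and packing, and lowest for Gabrd, with the null P21 mean at the other end for Gad1 on 1416561_at, Gad2 and Gabrd; on the second Gad1 probe set, 1416562_at, the wild-type P21 mean was lowest. The orders are set against the spread of the arrays. The pooled SD within groups is the square root of the mean of the 4 group variances. It was 0.10 for Gad1 (1416561_at) and 0.30 for Gad2, against spans of the group means of 0.33 and 0.68. For Gabrb2 the pooled SD, 0.41, was larger than the whole span of 0.17. For Gabra6 (1417121_at) the values were 0.15 and 0.19, for Gabrd 0.14 and 0.22, and for Slc32a1 (1422756_at) 0.11 and 0.20.

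The further genes of the pathway were read from 6 lists with 80 genes, of which 53 had a single-symbol probe set and 40 were tested. Of these 40, 0 passed the threshold for genotype at P21 (limma), 1 was lower in null animals at P49 and 0 depended on age in their genotype difference. With age, 0 passed in wild type, and 2 were higher and 1 was lower at P49 in null animals. As shares, 2.50% of the 40 were called for genotype at P49 and 7.50% for age in null animals, beside the 2.65% and 6.23% of all genes given above. For age averaged over genotypes, 2 of the 40 (5.00%) were called, both higher at P49, beside 6.97% of all genes. For genotype averaged over ages, 0 were called, beside 2.12%. The median difference of the 40 was 0.07 at P21 and 0.01 at P49 for genotype, against 0.00 and -0.02 for all genes.

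Gabbr1, which encodes the GABA-binding subunit of the GABA-B receptor, was the gene called for genotype. It read 15.64, 15.63 and 15.50 in wild type and 15.24, 15.10 and 15.06 in null animals at P49, and from 15.47 to 15.93 on the 6 P21 arrays. All 3 null P49 arrays lay below the other 9. It was lower by limma in null animals at P49 (-0.46 ± 0.11, adjusted p = 0.0412) and lower at P49 than at P21 within null animals (-0.52 ± 0.11, adjusted p = 0.0129), and its change with age in the genotype difference was -0.53 ± 0.15 (adjusted p = 0.251). The genotype call was kept in 11 of 24 alternatives (adjusted p from 0.00204 to 0.893), and was lost on leaving out any wild-type array or either of null P49 replicates 2 and 3. The difference itself lay between -0.51 and -0.42 without single arrays, and was -0.10 (adjusted p = 0.893) with the mean of all Gabbr1 probe sets. The age call was kept in 20 of 24 (0.00383 to 0.185), and was lost without null P49 replicate 2 or 3. It was also lost with the mean of all Gabbr1 probe sets (-0.34, adjusted p = 0.185 by limma) and with the arrays compared alone (-0.52, adjusted p = 0.107). The other Gabbr1 probe sets differed. For genotype at P49, 1422051_a_at gave -0.68 ± 0.23 and 1437188_at gave 0.03 ± 0.12 (adjusted p = 0.212 and 0.98 by limma). The dim 1425595_at, which lay below the filter, gave 0.73 ± 0.61 there. It enters the mean of all Gabbr1 probe sets, which gave -0.10. For age in null animals, 1422051_a_at gave -0.55 ± 0.23 and 1437188_at gave 0.16 ± 0.12, the opposite sign (adjusted p = 0.202 and 0.505 by limma). The other 3 genes tested of the GABA-B list, which are subunits of the potassium channels opened by these receptors, did not pass the threshold in any of the 5 comparisons; Kcnj9 differed by 0.37 ± 0.10 with age in wild type (adjusted p = 0.143).

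Gabra2, an alpha subunit of GABA-A receptors, was higher at P49 than at P21 in null animals (1.09 ± 0.30, adjusted p = 0.0441 by limma). It read 11.97, 10.99 and 12.09 on the null P21 arrays and 13.00, 13.20 and 12.13 on the null P49 arrays. In wild type it read 11.55, 11.43 and 11.50 at P21 and 12.49, 12.03 and 12.67 at P49, a difference of 0.90 ± 0.30 (adjusted p = 0.274). The P49 arrays were above the P21 arrays in each genotype. The call in null animals was kept in 8 of 24 alternatives (adjusted p from 0.021 to 0.197), among single arrays only without null P21 replicate 1 or 3 or null P49 replicate 3, and was lost without the 3 arrays that went against their sex labels (0.81, adjusted p = 0.169). Averaged over genotypes, its age difference of 1.00 ± 0.21 passed the threshold in the main analysis (adjusted p = 0.0119) and in 23 of 23 alternatives. The other GABA-A subunits tested, Gabrb1 and Gabrg1, were not called in any of the 5 comparisons.

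Gabarapl1, a homologue of the GABA-A receptor trafficking protein Gabarap that also acts in autophagy, was also called. In null animals it read 15.11, 15.28 and 15.42 at P21 and 15.57, 15.71 and 15.66 at P49, a rise of 0.38 ± 0.09 (adjusted p = 0.0223, limma). In wild type it read from 15.32 to 15.38 at P21 and from 15.53 to 15.64 at P49 (0.24 ± 0.09, adjusted p = 0.328). The call in null animals was kept in 17 of 24 alternatives (adjusted p from 0.00702 to 0.326) and was lost without null P21 replicate 1 or null P49 replicate 2 or 3; scaling to a common median also ended it (0.15, adjusted p = 0.326). Averaged over genotypes the difference with age was 0.31 ± 0.06 (adjusted p = 0.00902), and scaling to a common median ended that call too (0.19, adjusted p = 0.0884), alone among its 23 alternatives. The probe set is 1416419_s_at, a kind that can be shared by related transcripts, and the further probe set, 1416418_at, gave 0.27 ± 0.11 in null animals (adjusted p = 0.188) and 0.18 ± 0.08 averaged (adjusted p = 0.208). The other 13 genes tested of the scaffold list, Gphn and Nlgn2 among them, were not called in any of the 5 comparisons.

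**Figure D3:**
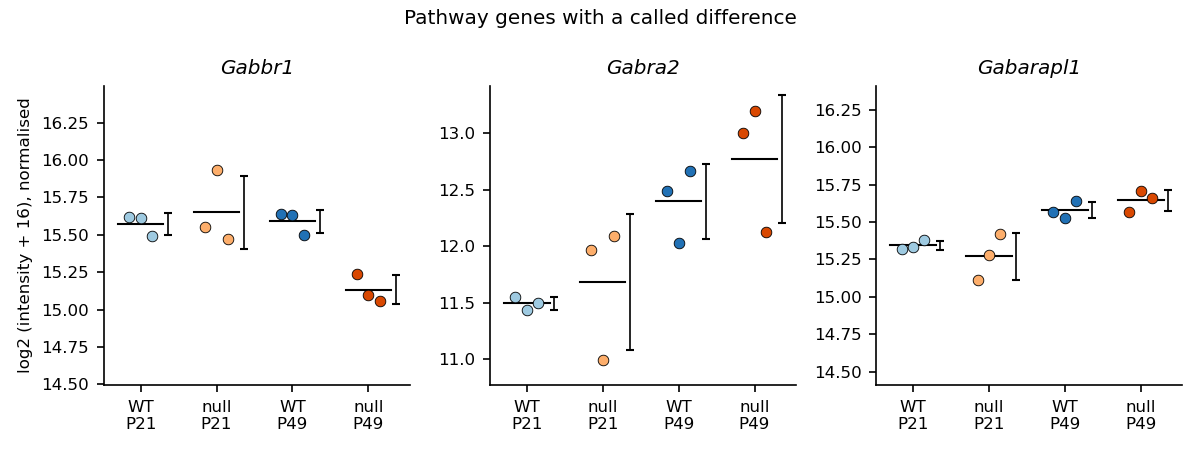
Array values of the 3 pathway genes with a called difference, as log2(intensity + 16) after quantile normalization, by group; lines are means and error bars SD (n = 3 animals), and WT is wild type. Gabbr1 is lowest on the null P49 arrays, 15.06 to 15.24, and the P49 arrays lie above the P21 arrays for Gabra2 and Gabarapl1 in both genotypes.

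The remaining lists held no called gene in the 5 comparisons. Of the genes that supply, take up and break down GABA and glycine, 13 were tested; Slc38a3, a glutamine transporter of astrocytes, differed by 0.54 ± 0.16 between genotypes at P49 (adjusted p = 0.126) and Slc38a1, a glutamine transporter of neurons, by 0.56 ± 0.16 with age in wild type (adjusted p = 0.169). Glrb, the beta subunit of the glycine receptor and the 1 gene of its list above the filter, differed between genotypes by -0.25 ± 0.13 at P21 and -0.26 ± 0.13 at P49 (adjusted p = 0.516 and 0.489), and by 0.01 and 0.00 with age. Among 5 genes of chloride transport, Slc12a5, the neuronal exporter that sets the direction of the GABA-A current, differed by -0.12 ± 0.08 between genotypes at P49 (adjusted p = 0.657).

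The cells that release and receive GABA were read beside these genes through their other markers. In null animals at P49, 11 of 13 tested Purkinje cell markers were lower, with a median difference of -0.95 and a range of -1.60 to -0.35, and their summed level (log2 of the summed intensities) was 18.84 to 19.33 against 19.77 to 19.81 in wild type. Of 12 interneuron markers 0 were called, with a median of -0.06 and summed levels that overlapped (15.89 to 15.95 in wild type, from 15.88 in null animals). Of 14 granule neuron markers 0 were called, with a median of -0.01 and a summed level of 19.12 to 19.21 against 19.17 to 19.21. Over the 6 inhibitory genes the median was -0.16, against -0.02 over all genes. Fewer cells of a type and less RNA per cell cannot be told apart in whole tissue. Microglia markers rose in the same arrays (11 of 13, median 3.03), as did 3 of 12 astrocyte and Bergmann glia markers: Gfap (3.30), Vim (1.05) and Aqp4 (0.94). Of 13 myelin markers 0 were called between genotypes at either age, and at P21 all 13 differences were negative, with a median of -0.36. Averaged over both ages, 3 of the 13 were called lower in null animals (median of the 13, -0.23).

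Markers also differed between ages, in the comparisons that gave the Gad2 values and the calls of Gabra2, Gabbr1 and Gabarapl1. In wild type 6 of 13 myelin markers were lower at P49 than at P21 (median of the 13, -0.58), and 0 of 13 Purkinje and 0 of 13 microglia markers were called. In null animals 10 of 13 Purkinje markers (median of the 13, -0.67) and 3 of 13 myelin markers (Mog, Cldn11 and Ugt8a; median of the 13, -0.32) were lower at P49, 11 of 13 microglia markers were higher (1.82), and 3 of 12 astrocyte markers were higher (Gfap, Vim and Aqp4) and 2 were lower (Fabp7 and Gdf10). Among granule neuron markers, Cadps2 and Calb2 were lower with age in null animals, and 0 of 12 interneuron markers were called in either genotype. The part of these cell types in the values of the inhibitory genes was not tested.

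The mean of the 13 Purkinje markers was 15.53 ± 0.03 in wild type and 14.59 ± 0.32 in null animals at P49 (SD, n = 3), a difference of -0.94, and differed by -0.03 at P21. On the same P49 arrays the differences of the genes of GABA synthesis and packing were those given above, -0.21 for Gad1, -0.18 for Gad2 and -0.20 for Slc32a1, none of them called.

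**Figure D4:**
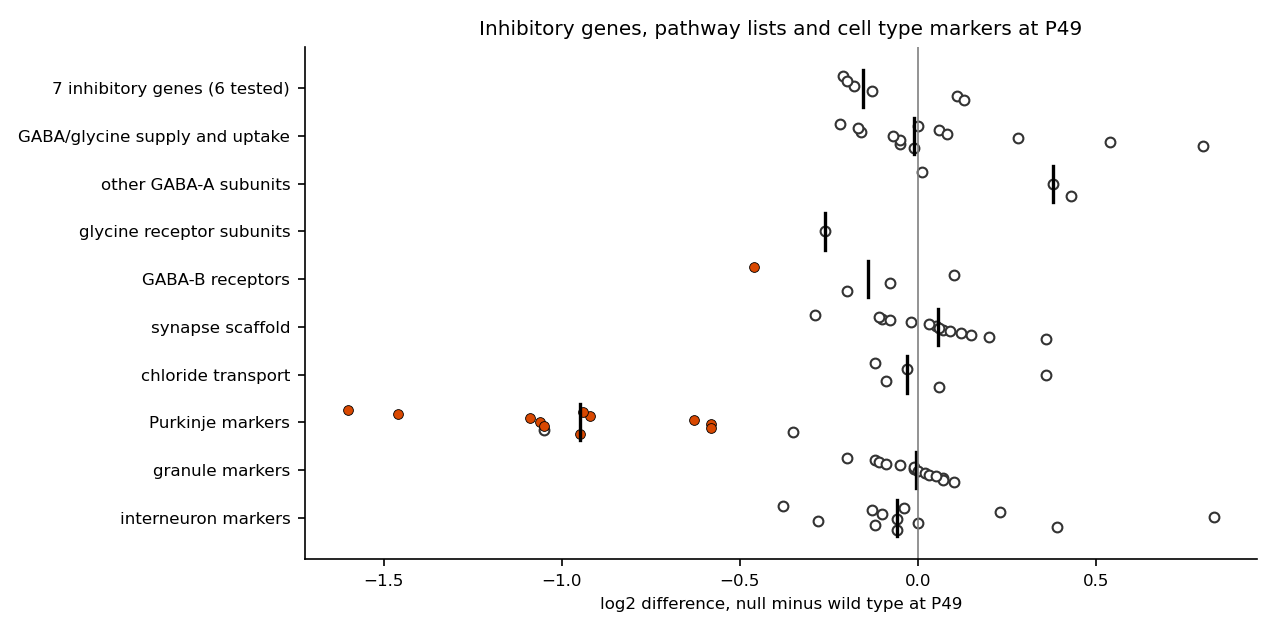
Null minus wild-type differences at P49, in log2(intensity + 16), for the 6 tested inhibitory genes, the 6 pathway lists and 3 cell type marker lists; each circle is a gene, filled circles passed the adjusted p threshold of 0.05 (limma) and vertical bars are medians. The Purkinje markers lie between -1.60 and -0.35, and the 6 inhibitory genes between -0.21 and 0.13.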

How the data were processed

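Biotin-labelled RNA of 12 cerebella was hybridised to 12 Affymetrix arrays, 1 per animal, per the labels. The deposited values are linear intensities, 1 for each probe set on each array; how probes were summarised and scaled is not given in the sources used here. The trimmed mean (2% off either end) was 5002 on every array, and the number of arrays limits the precision. Ages were taken from the time point labels, although a protocol text puts all animals at P21.

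Intensities were transformed as log2(value + 16) and quantile normalized, so differences are on that scale, which understates those of dim genes. Probe sets were named through the platform annotation and a RefSeq gene table (GRCm38.p6). Of the probe sets, 20380 had 1 gene symbol, 691 several, 1555 were not listed with a gene and 64 were controls. The brightest single-symbol probe set stood for a gene, and genes were kept above the 40th percentile. The 4 group means were fitted on all 12 arrays in limma 3.58.1 (R 4.3.3, eBayes with trend, two-sided tests, Benjamini-Hochberg over 7835 genes, threshold 0.05), after the script had been tested on simulated data. Further probe sets come from the same fit over 13576 probe sets. Errors of differences are standard errors, and errors of group means are SD. Replicate numbers count the animals within each group in the order of the sample titles, which number all animals from 1 to 12. The labels do not tie animals of different groups together. The alternatives were 12 settings and leaving out each of the 12 arrays.

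The members and lists were chosen with earlier results of these data known. Named are all members, called pathway genes and up to 2 genes per list and comparison with the smallest p; called cell type markers were named after their values were seen. Likeness took the 3 highest correlations with members whose group means span at least 0.5. Clone names (ending in Rik) and numbered names (starting with Gm) were left out of it. Detection calls, proteins and genomic positions of probes were not used here.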

Additional observations from a re-analysis of the deposited data

How the results depend on the processing

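The 6 tested genes were recomputed under 12 settings and without each of the 12 arrays, 983 values in all. No member was called for genotype at P21 or P49, for its dependence on age or for age in wild type under any of them. Leaving out single arrays gave 0 to 1 called members for age in null animals, for genotype averaged over ages and for age averaged over genotypes. Without the 3 arrays that went against their sex labels, 1 member was called for age in null animals (Gad2) and 2 for age averaged over genotypes (Gad1 and Gad2). Only the arrays compared could not be fitted alone for the dependence on age or the averages, and Gad2 drops out at the 60th percentile filter.

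The count over all genes moved more. At P21 it was 5, with 8 for the values as deposited, 3 with the filter at the 60th percentile, 3 with the mean of all probe sets of a gene, 11 with every probe set entered, 1 with the arrays compared alone and 3 to 27 without single arrays. At P49 it was 208, with 400 for the arrays compared alone, 352 without the 3 arrays and 99 to 321 without single arrays. For the dependence on age it was 43, and 18 to 68 without single arrays. For age in wild type it was 55, with 126 for the arrays compared alone, 36 without the mean-variance trend, 125 without the 3 arrays and 14 to 112 without single arrays. For age in null animals it was 488, with 746 after scaling to a common median (16.2% of them higher, against 44.7%), 126 for the arrays compared alone and 169 to 643 without single arrays.

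Of 42 results of these genes, 20 changed sign under some alternative; none of these 20 was called, and the cause was not tested. Scaling to a common median turned Gabra6 (P21 0.04, dependence on age -0.29, age in wild type 0.08, in null -0.21, averaged -0.06), Gabrb2 (dependence on age -0.06, age in null -0.04, averaged -0.01) and Gad1 age in null (-0.13). The values as deposited turned Gad2 dependence on age (0.03) and Gabra6 dependence on age (-0.16), age in wild type (0.11) and age in null (-0.05). The mean of all probe sets turned Slc32a1 genotype averaged over ages (0.40) and age averaged over genotypes (0.00), since it takes in the dim probe set. Without the 3 arrays the sign turned for Gabrb2 at P21 (-0.29) and averaged over ages (-0.08), Gad2 dependence on age (0.52) and Gabra6 dependence on age (-0.09), age in null (-0.11) and age averaged over genotypes (-0.07). Without single arrays the ranges that cross 0 were, for Gad2, -0.33 to 0.20 at P21, -0.38 to 0.16 for the dependence on age and -0.26 to 0.01 for genotype averaged; for Gad1, -0.10 to 0.07 for the dependence on age; and for Gabrd, -0.10 to 0.11 for the same. For Gabra6 they were -0.10 to 0.14 for the dependence on age, -0.03 to 0.02 for age in wild type, -0.12 to 0.13 in null and -0.07 to 0.06 averaged. For Gabrb2 they were -0.24 to 0.31 at P21, -0.15 to 0.33 at P49, -0.26 to 0.36 for the dependence on age, -0.16 to 0.32 for age in wild type, -0.14 to 0.40 in null, -0.05 to 0.22 for genotype averaged and -0.05 to 0.22 for age averaged.

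With the replicate number as a block, 0 of 6 members were called in each comparison, and over all genes 5 were called at P21, 189 at P49, 36 for the dependence on age, 49 for age in wild type and 424 for age in null animals. Gad2 with age, averaged, had an adjusted p of 0.0816 with the block, and the Gabra2 call in null animals was lost with it (0.0562). The correlations of the deviations of same-numbered arrays ran from -0.18 to 0.19 over 18 pairs, with 6 over 0.1. Of the arrays of other groups, the closest had the same number for 7 of 12 arrays. Whether the numbers pair the samples is not decided by these values, since no chance level was computed for them.

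Without records of detection, what lies above background is not known for Slc6a5 or the second Slc32a1 probe set.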
